A study of Mus musculus with 6 samples.

Results

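The net change in gene expression over differentiation was measured between 2 day 0 arrays and 2 day 4 arrays, 4 of the 6 one-colour bead arrays of a study of mouse embryonic stem cells of the J1 line. On each day 1 array held RNA of a culture assigned to Noggin and 1 held RNA of a mock-treated culture, and the change of each treatment was taken between its own pair of arrays. In the Noggin group the protein was given at 150 ng/ml for 3 days, the cells were then moved to uncoated dishes without leukaemia inhibitory factor (LIF) to form embryoid bodies, and Noggin was removed on the second day of suspension. The control cultures, called mock in the labels, were not treated, and their stem cells and embryoid bodies were collected on the same days. The treatment field of all 6 arrays reads Noggin with LIF, so Noggin and mock were told apart by the source names, and the design text does not settle if the RNA of the Noggin culture at day 0 was taken ahead of the 3 days of exposure or at their end. All arrays come from 1 line, and nothing says that they come from separate cultures. The p-values therefore measure the spread between these arrays, which may be technical. With 1 array per treatment and day, this spread is how far the courses of Noggin and mock differ. A difference between the treatments widens it, so a gene that changed mainly in 1 treatment can fail the test. The day 4 arrays hold embryoid bodies and the day 0 arrays hold stem cells in LIF, so time, suspension culture and loss of LIF cannot be told apart. In such bulk RNA, fewer cells of a type and less RNA per cell cannot be told apart either. Values are log2 signals, quantile-normalised between arrays, on a scale with a median of 7.37 on every array. Before normalisation the median intensities of the arrays ran from 152 to 176.55 and the lowest values from 91.4 to 101.4, so a probe near the median is close to background, and the number of arrays limits the precision.

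Embryonic stem cells held in LIF keep the naive state of the early epiblast through transcription factors such as Esrrb, Klf4 and Tfcp2l1, several of which respond to LIF through Stat3. As embryoid bodies they leave this state, pass through a state like that of the post-implantation epiblast, and enter a phase like gastrulation in which mesoderm and endoderm arise at a primitive streak under Nodal, Wnt and BMP signals. Noggin binds BMP ligands and keeps them from their receptors, and BMP has stage-dependent parts both in holding the naive state and in forming mesoderm.

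Of the 27495 probes, 14439 exceeded the median of their array on 2 or more of the 4 arrays and were tested. A probe at or below the median on both day 0 arrays could thus be tested only if it rose. Likewise, a probe at or below it on both day 4 arrays could be tested only if it fell. From day 0 to day 4, limma called 2930 probes that rose (20.3% of those tested) and 2905 that fell (20.1%), for 2033 and 1925 named genes, at a Benjamini-Hochberg adjusted p under 0.05. This made 5835 probes, or 40.4%, in either direction. Of these, 491 rose (3.4%) and 472 fell (3.27%) by 2-fold or more on average. Across the 14439 probes, which are not independent of each other, the changes with Noggin and with mock had a Pearson r of 0.866 and a median of -0.01 each. The calls rested on both day 0 arrays: without the Noggin day 0 array limma called 0 probes (3493 at an unadjusted p under 0.05) and without the mock day 0 array 0 probes (4249 at an unadjusted p under 0.05), as the spread then comes from days 2 and 4 alone. With only the 4 day 0 and day 4 arrays in the fit, 1283 probes rose (8.89%) and 1182 fell (8.19%).

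Among the probes that rose by 2-fold or more, the change was larger with Noggin for 372 of 491, or 75.8%, with a median of 1.49 with Noggin and 1.18 with mock. Among those that fell by 2-fold or more it was larger with Noggin for 407 of 472, or 86.2%, with medians of -1.57 and -1.2. At a threshold of 2-fold in a single treatment, 700 probes (4.85%) were higher and 650 (4.5%) lower at day 4 with Noggin, against 399 (2.76%) and 405 (2.8%) with mock. The falls were further advanced at day 2 than the rises. At day 2 the median of the falling probes had covered 64.8% of the net change and that of the rising probes 43.6%. Averaged over the treatments, 86 of the 491 rising probes lay below day 0 at day 2, and 17 of the 472 falling probes above it. Both were counted at any size, however small.

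**Figure D1:**
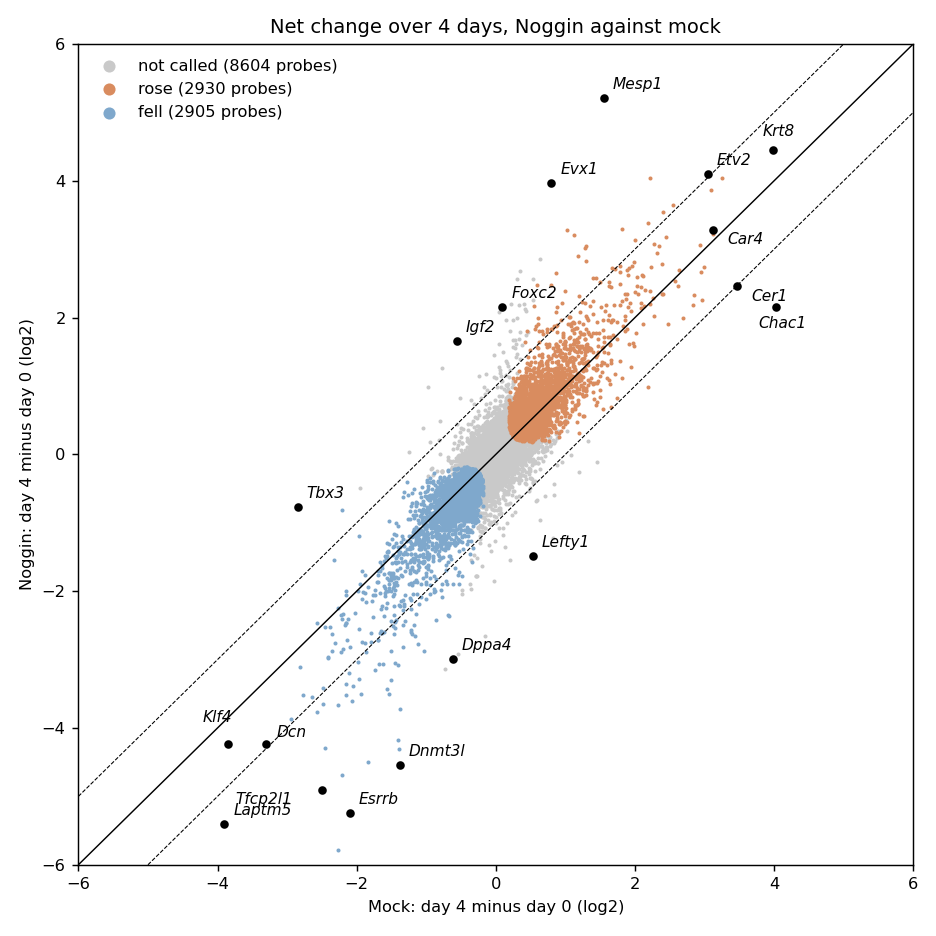
Day 4 minus day 0 change on the log2 scale of the 14439 tested probes, with mock on the horizontal and Noggin on the vertical axis. Each point is 1 probe coloured by the limma call, the solid line marks equal change and the dashed lines a difference of 1 on the log2 scale. Krt8, Car4 and Klf4 lie near the line of equal change, whereas Mesp1, Evx1, Esrrb and Dnmt3l lie far from it.

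The largest rise of a named gene belonged to Krt8, which encodes a keratin of simple epithelia. Its signal was 8.04 with Noggin and 7.95 with mock at day 0, and 12.49 and 11.94 at day 4, so both day 4 arrays lay far above both day 0 arrays. Krt8 rose by 4.22 (SE 0.153, limma adjusted p = 0.000663), an average of 18.6-fold. Another, dim probe of Krt8 stayed below the filter on all arrays, between 7.0 and 7.19 over days 0 and 4. Its partner keratin Krt18 stood at 7.65 with Noggin and 7.75 with mock at day 0, and 11.30 and 10.30 at day 4. Krt18 rose by 3.10 (SE 0.29, limma adjusted p = 0.002), with day 4 higher in both treatments. Lhx1, which encodes a LIM homeodomain factor of the early mesendoderm, stood at 7.51 with Noggin and 7.54 with mock at day 0, and 11.55 and 10.79 at day 4. It rose by 3.65 (SE 0.2, limma adjusted p = 0.000872). Etv2, a factor required for blood and endothelium, stood at 7.33 with Noggin and 7.31 with mock at day 0, and 11.43 and 10.36 at day 4, and rose by 3.58 (SE 0.239, limma adjusted p = 0.00113). At day 2 the levels of Etv2 were already 9.27 with Noggin and 8.63 with mock. By contrast Krt8 was still at 7.60 and 7.63 at day 2, Krt18 at 7.74 and 7.90, and Lhx1 at 7.03 and 6.96.

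Among the other genes of the 12 largest rises, Car4, which encodes a membrane-bound carbonic anhydrase, rose by 3.20, and its changes were 3.28 with Noggin and 3.12 with mock. Cd24a, which encodes a small glycoprotein of the cell surface, rose by 3.17. Cfc1, which encodes the Nodal co-receptor Cryptic, rose by 3.00, and Fgf5, the classical marker of the post-implantation epiblast, by 2.87. Greb1 rose by 3.13 and Mesp1 by 3.38, both with a larger change with Noggin. Chac1, which encodes a glutathione-degrading enzyme, rose by 3.10 and Cer1, a secreted antagonist of Nodal and BMP, by 2.96, both with a larger change with mock. With only the 4 arrays in the fit, 3 of these 12 rises no longer passed, at adjusted p-values of 0.0511 for Greb1, 0.0528 for Chac1 and 0.113 for Mesp1.

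**Figure D2:**
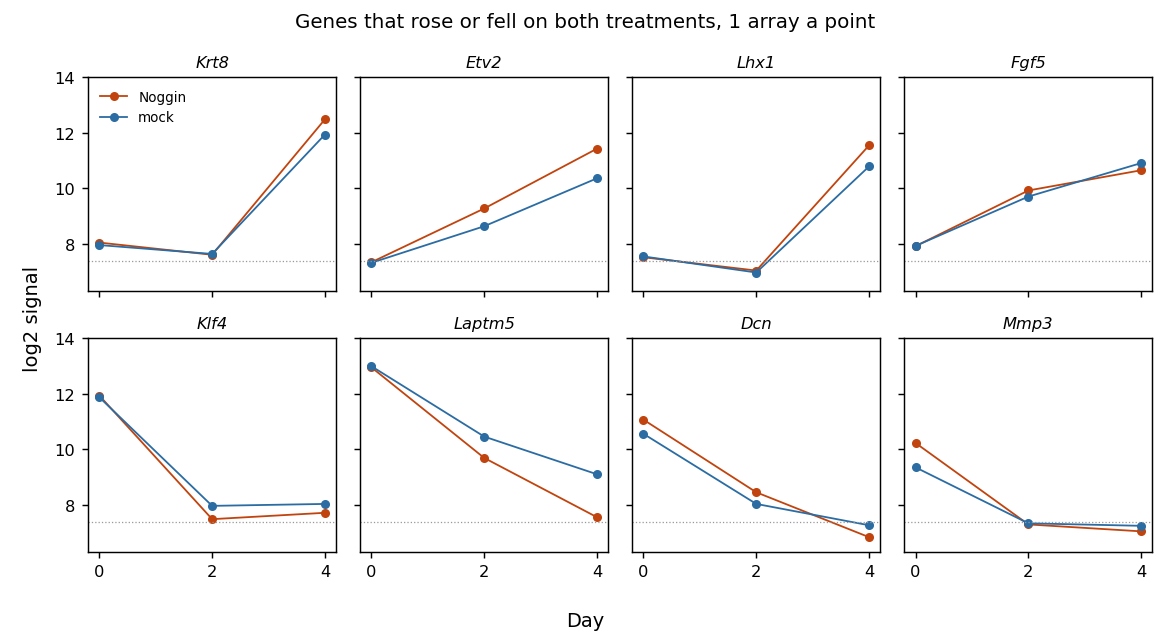
log2 signal on each of the 6 arrays against day for 8 genes, with 1 array a point, Noggin and mock as separate lines and the array median of 7.37 as a dotted line. Krt8 goes from 7.60 and 7.63 at day 2 to 12.49 and 11.94 at day 4, whereas Klf4 is already at 7.48 and 7.96 at day 2.

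The largest fall belonged to Laptm5, which encodes a lysosomal membrane protein best known from blood cells. Its signal was 12.96 with Noggin and 13.00 with mock at day 0, and 7.55 and 9.10 at day 4. Laptm5 fell by 4.66 (SE 0.333, limma adjusted p = 0.00123), an average of 25.2-fold, and the Noggin array at day 4 lay close to the array median. Klf4, a factor of the naive state, stood at 11.94 with Noggin and 11.88 with mock at day 0, and 7.71 and 8.03 at day 4, and fell by 4.04 (SE 0.142, limma adjusted p = 0.000663). The proteoglycan gene Dcn stood at 11.07 with Noggin and 10.56 with mock at day 0, and 6.83 and 7.26 at day 4, and fell by 3.77 (SE 0.235, limma adjusted p = 0.00102), and its 3 dimmer probes fell as well. Tfcp2l1 stood at 13.47 with Noggin and 13.36 with mock at day 0, and 8.57 and 10.86 at day 4, and Esrrb at 13.12 with Noggin and 13.16 with mock at day 0, and 7.88 and 11.06 at day 4. Tfcp2l1 fell by 3.70 (SE 0.524, limma adjusted p = 0.00515) and Esrrb fell by 3.67 (SE 0.707, limma adjusted p = 0.0128). For both of these factors the mock array at day 4 kept a signal well above that of the Noggin array.

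The other largest falls were those of the membrane protein gene Emp1 by 3.41, the junctional adhesion molecule gene Jam2 by 3.37, the nuclear receptor gene Nr5a2 by 3.17, and Ooep, which encodes a maternal protein of the oocyte, by 3.16. Cobl, which encodes an actin nucleator, fell by 3.09, the germ cell and placenta gene Tex19.1 by 3.07, and AU018091 by 2.97. Each of these 12 genes fell further with Noggin than with mock. Of the 12, 3 did not pass with only the 4 arrays in the fit, at adjusted p-values of 0.057 for Tfcp2l1, 0.0797 for Esrrb and 0.0781 for Ooep. Signals at or near 7.37 hold little beyond background, so the falls of Laptm5, Dcn, Emp1 and Jam2 and the rises of Lhx1 and Mesp1 are compressed.

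The promoters of 4 genes are shown because these genes mark the extremes of the comparison: Krt8 the largest rise, Laptm5 the largest fall, and Mesp1 and Dnmt3l the named genes with the largest differences of net change in either direction. Each runs from 250 bases before to 50 after the annotated start, 5′ to 3′ on the gene's strand, from RefSeq on GRCm38.p6, with matches to the motifs below in capitals. The regions are chr15:102004293-102004592 on the minus strand, chr4:130913066-130913365 on the plus strand, chr7:79793541-79793840 on the minus strand and chr10:78042037-78042336 on the plus strand.
Krt8: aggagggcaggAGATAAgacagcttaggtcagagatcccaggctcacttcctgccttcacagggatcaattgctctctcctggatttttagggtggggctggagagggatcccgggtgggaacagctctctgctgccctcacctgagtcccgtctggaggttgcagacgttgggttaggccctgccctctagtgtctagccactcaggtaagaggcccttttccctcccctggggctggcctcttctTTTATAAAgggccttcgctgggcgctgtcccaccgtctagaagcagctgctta
Laptm5: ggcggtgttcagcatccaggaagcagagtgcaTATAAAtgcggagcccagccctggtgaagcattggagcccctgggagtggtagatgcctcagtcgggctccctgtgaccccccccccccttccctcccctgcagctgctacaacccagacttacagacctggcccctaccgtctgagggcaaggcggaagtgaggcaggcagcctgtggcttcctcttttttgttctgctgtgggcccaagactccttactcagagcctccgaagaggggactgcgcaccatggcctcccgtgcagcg
Mesp1: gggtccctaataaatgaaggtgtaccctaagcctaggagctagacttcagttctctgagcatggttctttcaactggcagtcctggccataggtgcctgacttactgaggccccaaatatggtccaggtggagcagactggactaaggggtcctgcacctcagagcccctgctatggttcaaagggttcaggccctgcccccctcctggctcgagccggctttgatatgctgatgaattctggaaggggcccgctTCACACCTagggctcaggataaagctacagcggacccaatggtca
Dnmt3l: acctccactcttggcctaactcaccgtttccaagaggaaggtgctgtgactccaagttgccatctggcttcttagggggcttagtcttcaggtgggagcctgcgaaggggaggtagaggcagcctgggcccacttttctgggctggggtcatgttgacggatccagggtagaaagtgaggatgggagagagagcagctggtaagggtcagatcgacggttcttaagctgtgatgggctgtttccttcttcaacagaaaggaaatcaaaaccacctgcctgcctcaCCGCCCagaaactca
The motifs searched on both strands were AAGGTCA, a site type of Esrrb and Nr5a2, AGGTGTGA for T-box factors, AGATAA for GATA factors, CACGTG for E-box factors, GGGCGG, the GC box, and TATAAA, the TATA box. Krt8 held 1 AGATAA and 2 overlapping TATAAA matches on opposite strands at the start itself, Laptm5 held 1 TATAAA far upstream, Mesp1 held 1 AGGTGTGA on the other strand just after the start, and Dnmt3l held 1 GGGCGG. Over the 6993 tested genes with a promoter, TATAAA was present in 7.19%, against 11% of 273 genes that rose by 2-fold or more and 12.6% of 262 that fell. AGATAA was present in 6.03% of all, 8.06% of the rising and 3.44% of the falling genes, and AAGGTCA in 2.83%, 3.3% and 2.67%. AGGTGTGA was present in 0.758% of all and 1.1% of the rising genes. The falling genes held 0 matches of it. CACGTG was present in 11.2%, 8.42% and 7.63%, and GGGCGG in 66.5%, 62.6% and 65.3%. The median number of CG dinucleotides was 21 over all, 19 in the rising and 18 in the falling genes. These shares describe letters in a fixed window and were not tested.

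Genes of naive and core pluripotency fell together. Of 23 tested members, 18 fell and 1 rose, against 20.1% and 20.3% of all probes, with a median change of -1.81 beside -0.02 over all probes. With only the 4 arrays in the fit 7 members fell. Nanog stood at 13.66 with Noggin and 13.50 with mock at day 0, and 11.07 and 12.28 at day 4, and fell by 1.91 (limma adjusted p = 0.00957). Sox2 stood at 11.81 with Noggin and 11.79 with mock at day 0, and 9.96 and 11.08 at day 4, and fell by 1.28 (limma adjusted p = 0.0203, or 0.0539 under median scaling). Pou5f1, which encodes Oct4, was still high, at 10.83 with Noggin and 10.96 with mock at day 0, and 10.02 and 10.94 at day 4, and its difference of -0.42 did not pass (limma adjusted p = 0.152). At day 4 the mock array thus kept the day 0 level of this brighter Pou5f1 probe while the Noggin array lay below it. The other Pou5f1 probe changed by -1.12 with Noggin and -0.23 with mock. Its mean of -0.68 did not pass either (limma adjusted p = 0.054). Zfp42, the marker Rex1, fell by 2.85, Klf2 by 2.55, the growth factor gene Gdf3 by 2.50, Klf5 by 2.00 and Dppa2 by 1.95. Tcl1, a coactivator of Akt, fell by 1.91, Nr0b1 by 1.68, and the chromatin cofactor gene Trim28 by 0.84 (limma adjusted p = 0.00828, or 0.0627 without the mock day 4 array). Dppa4, with a difference of -1.81, and Tbx3, with -1.81, missed the threshold (limma adjusted p = 0.0588 and 0.0623). The member that rose was Lin28a, which encodes an RNA-binding protein that blocks let-7 maturation, by 0.59 (limma adjusted p = 0.0296), a call lost without the Noggin day 4 array (adjusted p = 0.0703) or the mock day 4 array (adjusted p = 0.168), and the Nodal co-receptor gene Tdgf1 had a difference of 0.14.

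LIF pathway genes fell in 9 of 13 tested members, against 20.1% of all probes, with a median of -0.57. With only the 4 arrays in the fit 6 fell. Socs3, the feedback inhibitor of Stat3, stood at 10.87 with Noggin and 10.98 with mock at day 0, and 8.40 and 8.41 at day 4, and fell by 2.52 (SE 0.093, limma adjusted p = 0.000663). Stat3 itself fell by 1.68, the target genes Gbx2 by 2.08 and Pim3 by 1.78, and the co-receptor gene Il6st by 0.57, while Jak2 rose by 0.50. These changes were close in size in both treatments, with -2.47 and -2.57 for Socs3 and -2.0 and -2.16 for Gbx2. Germ cell and early embryo genes fell in 9 of 9 tested members, against 20.1% of all probes. Their median was -1.41, and 6 fell in the 4-array fit. Besides Ooep and Tex19.1 these included the X-linked homeobox genes Rhox9 by 1.73 and Rhox5 by 1.43, Khdc3, a partner of Ooep in the oocyte, by 1.41, and the RNA-binding protein gene Dazl by 0.95. The other 7 members with a probe, among them Ddx4 and Zscan4c, lay below the filter.

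**Figure D3:**
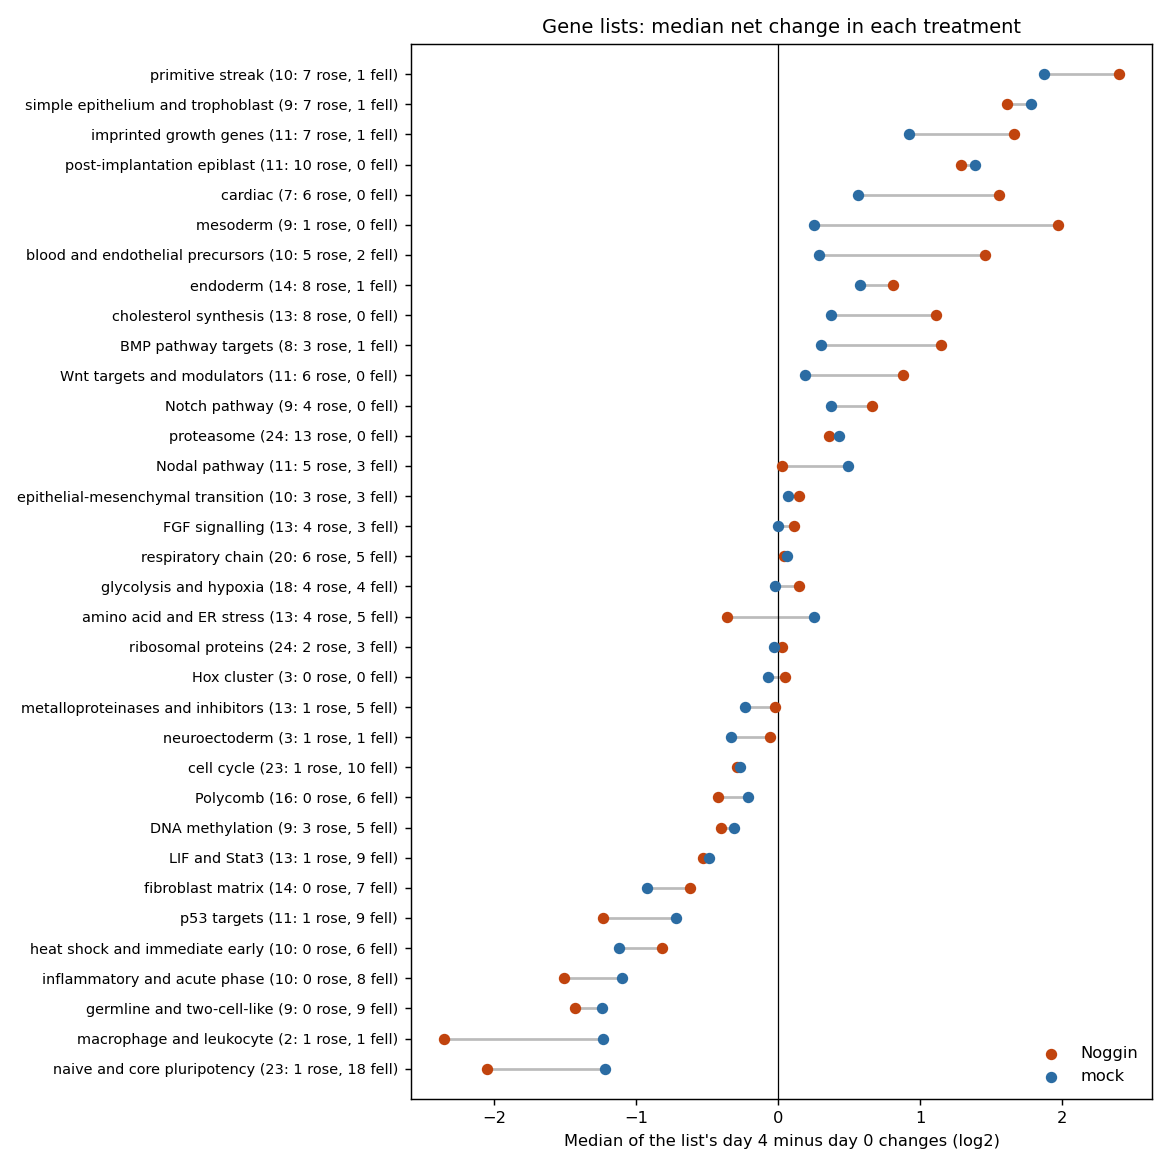
Median day 4 minus day 0 change on the log2 scale of the tested members of each of 34 gene lists, with Noggin and mock as separate points joined by a line, and in brackets the number of members tested, that rose and that fell. Pluripotency genes are at -2.05 with Noggin and -1.22 with mock, and mesoderm genes have the widest gap, at 1.97 and 0.25.

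Genes of the post-implantation epiblast rose in 10 of 11 tested members, against 20.3% of all probes, with a median of 1.22. With only the 4 arrays in the fit 9 rose. Fgf5 stood at 7.91 with Noggin and 7.92 with mock at day 0, and 10.65 and 10.91 at day 4. Fgf8, a growth factor of the epiblast and streak, stood at 7.08 with Noggin and 7.18 with mock at day 0, and 9.28 and 9.40 at day 4, and rose by 2.21 (SE 0.08, limma adjusted p = 0.000663). The homeobox gene Otx2 rose by 1.78, the kinase gene Pim2 by 2.02, Sox4 by 2.02, the Wnt modulator gene Sfrp2 by 1.22, Pou3f1 (Oct6) by 1.21, and Dnmt3b, a methyltransferase of de novo DNA methylation, by 0.84. Medians were 1.29 with Noggin and 1.39 with mock, and 0 members differed by 2-fold between treatments in either direction. Pou3f1, Sall2 and Fgf8 lay at or below the array median on both day 0 arrays. They passed the filter only through day 4 and so could only rise.

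Primitive streak genes rose in 7 of 10 tested members, against 20.3% of all probes, or 6 in the 4-array fit. Nodal fell, and the median of the list was 2.49. Mesp1, the factor of nascent and cardiac mesoderm, stood at 6.77 with Noggin and 7.04 with mock at day 0, and 11.98 and 8.59 at day 4. It rose by 3.38 (SE 0.879, limma adjusted p = 0.0303), and the rise was far steeper with Noggin. Eomes, a T-box factor of the streak, stood at 7.93 with Noggin and 7.99 with mock at day 0, and 11.32 and 10.18 at day 4, and rose by 2.79 (SE 0.301, limma adjusted p = 0.00267). The organiser gene Gsc stood at 7.90 with Noggin and 7.98 with mock at day 0, and 10.23 and 10.83 at day 4, and rose by 2.59 (SE 0.176, limma adjusted p = 0.00114), with mock the higher at day 4, as for Cer1 at 10.35 and 11.14. Foxa2, a factor of endoderm and axial mesoderm, rose by 1.21. Evx1, a posterior streak gene, stood at 7.32 with Noggin and 7.38 with mock at day 0, and 11.29 and 8.18 at day 4. Its average of 2.39 did not pass (limma adjusted p = 0.0649, or 0.0431 under normexp). The treatments lay far apart for Evx1 at day 4. Tbx6, which specifies paraxial mesoderm, had a difference of 1.11 and did not pass either (limma adjusted p = 0.1). Mesp1, Foxa2, Fgf8 and Tbx6 lay at or below the array median on both day 0 arrays. They passed the filter only through day 4 and so could only rise.

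The ligand gene Nodal stood at 10.21 with Noggin and 10.27 with mock at day 0, and 8.96 and 9.67 at day 4, and fell by 0.93 (SE 0.164, limma adjusted p = 0.00993). The feedback inhibitor gene Lefty2 fell by 0.85 (limma adjusted p = 0.0438, or 0.0679 without the Noggin day 4 array) and Pcsk6, a convertase that processes Nodal, by 1.75. Lefty1 did not pass, with a mean difference of -0.48, and its changes were -1.48 with Noggin and 0.53 with mock. The co-receptor gene Cfc1 rose as given above, the receptor gene Acvr2b by 0.90, and the targets Eomes, Gsc and Cer1 rose. In all 5 of 11 tested members rose and 3 fell, against 20.3% and 20.1% of all probes, or 4 and 1 in the 4-array fit. The medians were 0.03 with Noggin and 0.49 with mock.

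Mesoderm genes were higher mainly on the day 4 Noggin array. The test over both treatments called 1 of 9 tested members, against 40.4% of all probes. That member was Msx1, a homeobox target of BMP, at 6.99 with Noggin and 7.05 with mock at day 0, and 9.64 and 7.92 at day 4, which rose by 1.76 (SE 0.419, limma adjusted p = 0.0237). The median change of the list was 1.97 with Noggin and 0.25 with mock, and 7 of 9 members differed by 2-fold or more in this direction, against 0.776% of all probes. With the filter at the 75th percentile Bmp4 was the only member tested, so the list's median over both treatments went from 1.11 to the -1.22 of that gene. Foxc2 stood at 7.45 with Noggin and 7.26 with mock at day 0, and 9.60 and 7.35 at day 4. The growth factor receptor gene Pdgfra stood at 7.64 with Noggin and 7.57 with mock at day 0, and 9.63 and 7.87 at day 4, and the apelin receptor gene Aplnr at 7.29 with Noggin and 7.15 with mock at day 0, and 9.54 and 7.68 at day 4. For each of these 3 genes the mock value at day 4 lay within 0.6 of day 0, and the Noggin value was the highest of the 4. In the test over both treatments none of Foxc2, Pdgfra and Aplnr passed (limma adjusted p = 0.143, 0.0943 and 0.0525). Bmp4, the ligand that Noggin binds, stood at 9.46 with Noggin and 9.55 with mock at day 0, and 8.97 and 7.60 at day 4, after 7.59 and 8.04 at day 2, and its mean of -1.22 did not pass (limma adjusted p = 0.0677). A further 8 members lay below the filter, which only members high on at least 2 of the 4 arrays could pass.

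Cardiac genes that passed the filter were those of early progenitors and the first contractile proteins. Of 16 members with a probe, 7 were tested and 6 rose, against 20.3% of all probes. The medians were 1.56 with Noggin and 0.56 with mock, and 2 rose with only the 4 arrays in the fit. Gata6, a factor of endoderm and cardiac mesoderm, stood at 7.58 with Noggin and 7.55 with mock at day 0, and 10.53 and 9.86 at day 4, and rose by 2.63 (SE 0.177, limma adjusted p = 0.00113). The cardiac actin gene Actc1 stood at 7.65 with Noggin and 7.66 with mock at day 0, and 9.58 and 9.32 at day 4, and rose by 1.80 (SE 0.106, limma adjusted p = 0.000966). The atrial light chain gene Myl7 stood at 7.25 with Noggin and 7.27 with mock at day 0, and 9.09 and 7.83 at day 4, and rose by 1.20. Gata4 rose by 1.19, the progenitor factor gene Isl1 by 0.74 and the myosin heavy chain gene Myh7 by 0.71, which did not pass without the Noggin day 4 array (limma adjusted p = 0.0694). Nkx2-5, the early cardiac homeobox gene, lay below the filter at 7.32 with Noggin and 7.34 with mock at day 0, and 7.43 and 7.32 at day 4. Tnnt2, Myh6, Nppa, Tbx5 and Mef2c lay below the filter too. Among the tested members, Isl1, Myl7 and Myh7 lay at or below the array median on both day 0 arrays. They passed the filter only through day 4 and so could only rise.

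Of 10 tested blood and endothelial genes, 5 rose and 2 fell, against 20.3% and 20.1% of all probes. The medians were 1.46 with Noggin and 0.29 with mock, and with only the 4 arrays in the fit 3 rose. After Etv2, the VEGF receptor gene Flt1 rose by 2.37, with 2.34 and 2.40 in the treatments, and Lmo2, a cofactor of early blood formation, by 2.01. Hhex, a homeobox factor of endoderm and haemangioblast, rose by 1.89, and the blood factor gene Tal1 by 1.36, from 7.29 and 7.31 at day 0 to 9.46 with Noggin and 7.86 with mock; without the Noggin day 4 array the estimate for Tal1 was 0.64 (limma adjusted p = 0.0644). Gata2, with changes of 1.14 with Noggin and -0.24 with mock, did not pass. Pecam1, an adhesion molecule that stem cells also carry, fell by 1.93, and the TGF-beta co-receptor gene Eng by 0.36, a call lost without the Noggin or the mock day 4 array (limma adjusted p = 0.0876 and 0.0633). The erythroid genes Gata1, Hba-x and Hbb-bh1 and the endothelial genes Cdh5 and Tek were below the filter. Etv2, Tal1 and Lmo2 lay at or below the array median on both day 0 arrays. They passed the filter only through day 4 and so could only rise.

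Endoderm genes rose in 8 of 14 tested members, against 20.3% of all probes, and in 4 in the 4-array fit. Their median was 0.77. They were led by Gata6 and by the chemokine receptor gene Cxcr4, which rose by 2.05. The basement membrane collagen gene Col4a1 rose by 1.59 with 2.22 with Noggin and 0.95 with mock, and the laminin gene Lamb1 by 0.86. Apoe fell by 1.03. Among markers of later visceral endoderm, Hnf4a and Apoa1 did not pass, with differences of 0.16 and 0.19, and Afp lay below the filter. Simple epithelial genes rose in 7 of 9, against 20.3% of all probes. Besides the keratins, the tight junction genes Cldn6 and Cldn7 rose by 2.59 and 1.37, Krt7 by 1.57, and the E-cadherin gene Cdh1 by 0.59, though a dimmer probe of Cdh1 did not pass. The trophoblast and germ cell factor gene Tfap2c fell by 2.51, and Elf5, Cdx2 and Gata3 were below the filter, with Gata3 at 8.56 on the Noggin array of day 4 and at most 7.16 on the other 3 arrays of days 0 and 4. Of 12 neuroectoderm genes with a probe, 3 were tested. Nes, an intermediate filament gene of neural and other progenitors, rose by 1.25, and Sox21 fell by 0.94, with a dimmer probe that did not pass. Pax6, Zic1, Neurog1, Neurog2, Sox3 and Olig2 were below the filter. Of 10 Hox genes with a probe, 3 were tested and limma called 0 of them at an adjusted p under 0.05, with adjusted p-values of 0.717 for Hoxb2, 0.972 for Hoxb4 and 0.864 for Hoxc6.

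Targets of BMP, whose ligands Noggin binds, and genes of the Wnt, FGF and Notch pathways were measured next. Of 8 tested BMP targets, 3 rose and 1 fell, against 20.3% and 20.1% of all probes, and 2 rose and 0 fell in the 4-array fit. The medians were 1.15 with Noggin and 0.30 with mock. Id1, which encodes an inhibitor of basic helix-loop-helix factors, stood at 8.48 with Noggin and 8.36 with mock at day 0, and 10.83 and 10.21 at day 4, and rose by 2.10 (SE 0.234, limma adjusted p = 0.00287). Id2 stood at 8.72 with Noggin and 8.55 with mock at day 0, and 9.39 and 9.39 at day 4, and rose by 0.76 (SE 0.097, limma adjusted p = 0.00396). Id3 had a difference of 0.40 and did not pass (limma adjusted p = 0.183), whereas Id4 fell by 0.60. The inhibitory Smad gene Smad6, with changes of 1.16 with Noggin and 0.15 with mock, did not pass. Wnt targets and modulators rose in 6 of 11 members, against 20.3% of all probes, and in 2 in the 4-array fit. Sp5, a direct Wnt target, stood at 9.57 with Noggin and 9.47 with mock at day 0, and 12.30 and 11.39 at day 4, with lower values of 7.74 and 7.52 at day 2. It rose by 2.33 (SE 0.203, limma adjusted p = 0.00168). The secreted inhibitor genes Sfrp1 and Dkk1 rose by 0.94 and 0.72. Of 13 tested FGF genes 4 rose and 3 fell, against 20.3% and 20.1% of all probes. With only the 4 arrays in the fit 4 rose and 1 fell. Fgf15 rose by 1.42 and Dusp6, a phosphatase that dampens ERK, by 1.62, though its other probe did not pass, while Fgf4, the FGF of the naive state, fell by 0.86 and its effector gene Etv5 by 1.13. Notch pathway genes rose in 4 of 9, against 20.3% of all probes. They were led by the ligand gene Dll3 by 2.17 with 3.21 with Noggin and 1.12 with mock, and by Hes6 by 1.32. Of the 9 tested Notch genes, 1 rose with only the 4 arrays in the fit.

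Of 13 tested metalloproteinase and inhibitor genes 5 fell and 1 rose, against 20.1% and 20.3% of all probes, and 3 fell in the 4-array fit. Mmp3, which encodes the secreted protease stromelysin, stood at 10.23 with Noggin and 9.35 with mock at day 0, and 7.04 and 7.24 at day 4, and fell by 2.65 (SE 0.262, limma adjusted p = 0.00224). The dimmer Mmp3 probe fell by 1.68 (SE 0.219, limma adjusted p = 0.00415). At day 2 the brighter probe was already at 7.29 and 7.33, near the array median. The inhibitor genes Timp1 and Timp2 fell by 2.26 and 1.11 and the collagenase gene Mmp13 by 0.90 (limma adjusted p = 0.0161, or 0.123 and 0.0998 without the Noggin or the mock day 4 array), whereas Mmp14, a membrane-bound member, rose by 1.03. Fibroblast matrix genes fell in 7 of 14 tested members, against 20.1% of all probes, and 0 rose, and in 5 in the 4-array fit. After Dcn came the collagen gene Col6a1 by 1.64, Fbln2 by 1.52, the lysyl oxidase gene Loxl1 by 1.31 and Thy1 by 1.25. The summed linear signal of the 17 fibroblast genes with a probe was 10171 with Noggin and 9190 with mock at day 0, 4430 on each array at day 2, and 6176 and 4627 at day 4, and 2 of the 17 lay at or below the array median on all 4 arrays. Inflammatory genes fell as well. Of 10 tested, 8 fell, against 20.1% of all probes, and all 8 also fell with only the 4 arrays in the fit. Among them, the chemokine genes Cxcl1 and Ccl7 fell by 2.27 and 2.02, the prostaglandin synthase gene Ptgs2 by 1.79 and Il6 by 1.48. The summed signal of the 11 inflammatory genes with a probe was 6295 and 5560 at day 0 and 2709 and 2808 at day 4. The part of another cell type in these falls, or in that of Mmp3, was not tested.

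Leukocyte markers apart from Laptm5 were low or absent from the tested set. Of the 6 with a probe, 3 lay at or below the array median on all 4 arrays, and only Laptm5 and Coro1a, which encodes an actin regulator, were tested. Coro1a rose by 1.08. The summed signal of the 6 was 8739 and 8958 at day 0 and 1037 and 1561 at day 4, and most of it at day 0 was Laptm5. Ptprc and Csf1r, which define the lineage, were not analysed here. Of 10 tested markers of epithelial-mesenchymal transition 3 rose and 3 fell, close to the 20.3% and 20.1% of all probes, and 1 rose and 0 fell in the 4-array fit. The N-cadherin gene Cdh2 rose by 0.74, as did another of its probes by 0.69, while its remaining probes did not pass or lay below the filter. The repressor gene Zeb1 fell by 0.65, and Vim, with a difference of -0.11, did not pass.

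Of 9 tested DNA methylation genes 5 fell and 3 rose, against 20.1% and 20.3% of all probes. In the 4-array fit 2 fell and 2 rose. The risers were Dnmt3b, the thymine glycosylase gene Tdg by 0.68 and the methyl-CpG-binding protein gene Mbd2 by 0.58. Dnmt3l, the catalytically inactive partner of the de novo methyltransferases, stood at 12.61 with Noggin and 12.75 with mock at day 0, and 8.07 and 11.37 at day 4, and fell by 2.96 (SE 0.765, limma adjusted p = 0.0298), which did not pass with only the 4 arrays in the fit (adjusted p = 0.111) or under median scaling (adjusted p = 0.0509). Dnmt3l stayed within 1.5 of its day 0 level on the mock array of day 4. Tet1, which oxidises methylcytosine, fell by 1.62, and the maintenance genes Dnmt1 and Uhrf1 by 0.48 and 0.53, of which Uhrf1 did not pass without the mock day 4 array (limma adjusted p = 0.0692). Of 16 tested Polycomb genes 6 fell and 0 rose, against 20.1% and 20.3% of all probes. In the 4-array fit 3 fell. Mtf2, a partner of Polycomb repressive complex 2, fell by 1.94 (limma adjusted p = 0.0121, or 0.0648 without the mock day 4 array), Cbx7, the chromobox protein of stem cells, by 1.30, and the core subunit gene Eed by 1.20, whereas Ezh2, with a difference of -0.25, did not pass. Imprinted growth genes rose in 7 of 11, against 20.3% of all probes. Peg3 rose by 1.99, the cell cycle inhibitor gene Cdkn1c by 1.75, Asb4 by 1.82, Ndn by 1.53 and Mest by 1.47, and the receptor gene Igf2r, which clears IGF2, fell by 0.47 (limma adjusted p = 0.0137, or 0.0621 without the Noggin day 4 array).

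Metabolic and stress genes were also described by list. Cholesterol synthesis genes rose in 8 of 13 tested members, against 20.3% of all probes, with medians of 1.11 with Noggin and 0.37 with mock. With only the 4 arrays limma called 0 of them at an adjusted p under 0.05, where Cyp51 was at 0.0575. Cyp51, a sterol demethylase, stood at 8.75 with Noggin and 8.84 with mock at day 0, and 11.06 and 10.03 at day 4, and rose by 1.75; Msmo1, a later enzyme, rose by 1.53 and Hmgcs1, an early enzyme of the pathway, by 1.25. Of 18 tested glycolysis and hypoxia genes 4 rose and 4 fell, close to the shares of all probes, with Ldha up by 1.82 and the glucose transporter gene Slc2a1 by 0.85, and the kinase genes Pfkp and Hk1 down by 1.61 and 1.27, though 1 of the other probes of Pfkp did not pass. The p53 targets fell in 9 of 11 members, against 20.1% of all probes, and in 6 in the 4-array fit. Among them, Cdkn1a fell by 1.72, Mdm2 by 1.69 and Gadd45a by 1.50. Heat shock and immediate early genes fell in 6 of 10, against 20.1% of all probes, and in 6 in the 4-array fit. The small heat shock gene Hspb1 fell by 2.34 and Fos by 2.26. Of 13 tested genes of amino acid and ER stress 4 rose and 5 fell, against 20.3% and 20.1% of all probes. In the 4-array fit 0 rose and 1 fell. Chac1 rose whereas the asparagine synthetase gene Asns fell by 1.33 and the arginine transporter gene Slc7a3 by 1.26, neither of which passed under median scaling (limma adjusted p = 0.0533 and 0.074).

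Cell cycle genes fell in 10 of 23 tested members with small changes, against 20.1% of all probes, and in 1 in the 4-array fit. Their median was -0.25, and the largest fall was that of the transcription factor gene Mybl2 by 1.45. Proteasome genes rose in 13 of 24, against 20.3% of all probes, and in 8 in the 4-array fit. They were led by the immunoproteasome subunits Psmb10 by 1.27 and Psmb8 by 1.21, with 1.23 and 1.30 for Psmb10 in the treatments. Of 20 tested respiratory chain genes 6 rose, against 20.3% of all probes, led by Cycs (cytochrome c) by 1.15 and Uqcrh by 1.14, and 5 fell, against 20.1%, led by Uqcrc1 by 0.90. Ribosomal protein genes rose in 2 and fell in 3 of 24, against 20.3% and 20.1% of all probes. Their median of -0.01 became 0.28 under median scaling.

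The size of the net change differed by 2-fold or more between the treatments for 234 of 14439 probes (1.62%). It was higher with Noggin for 112 (0.776%) and lower for 122 (0.845%), in 89 and 87 named genes, and no replicate or test stands behind these differences. Of the 112, 88 were up in both treatments, 21 were up with Noggin but not with mock, and 3 were down in both. Of the 122, 96 were down in both treatments, 22 were down with Noggin but not with mock, and 4 were up in both. These signs were counted at any size, however small, so a probe that changed mainly in 1 treatment can count as up or down in both. Foxc2, for example, counts as up in both, although its mock signal went only from 7.26 to 7.35. By sign alone, most of these probes thus changed in the same direction in both treatments. How many changed by more than the spread in both was not tested. Of the tested probes, 0 differed by 2-fold between Noggin and mock at day 0 and 236 did at day 4. Smaller differences at day 0 also enter the difference of net change. For Mmp3 it was -1.08, with Noggin minus mock at 0.88 at day 0 and -0.2 at day 4. With normexp background correction 161 were higher and 210 lower, and under median scaling 84 and 177.

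**Figure D4:**
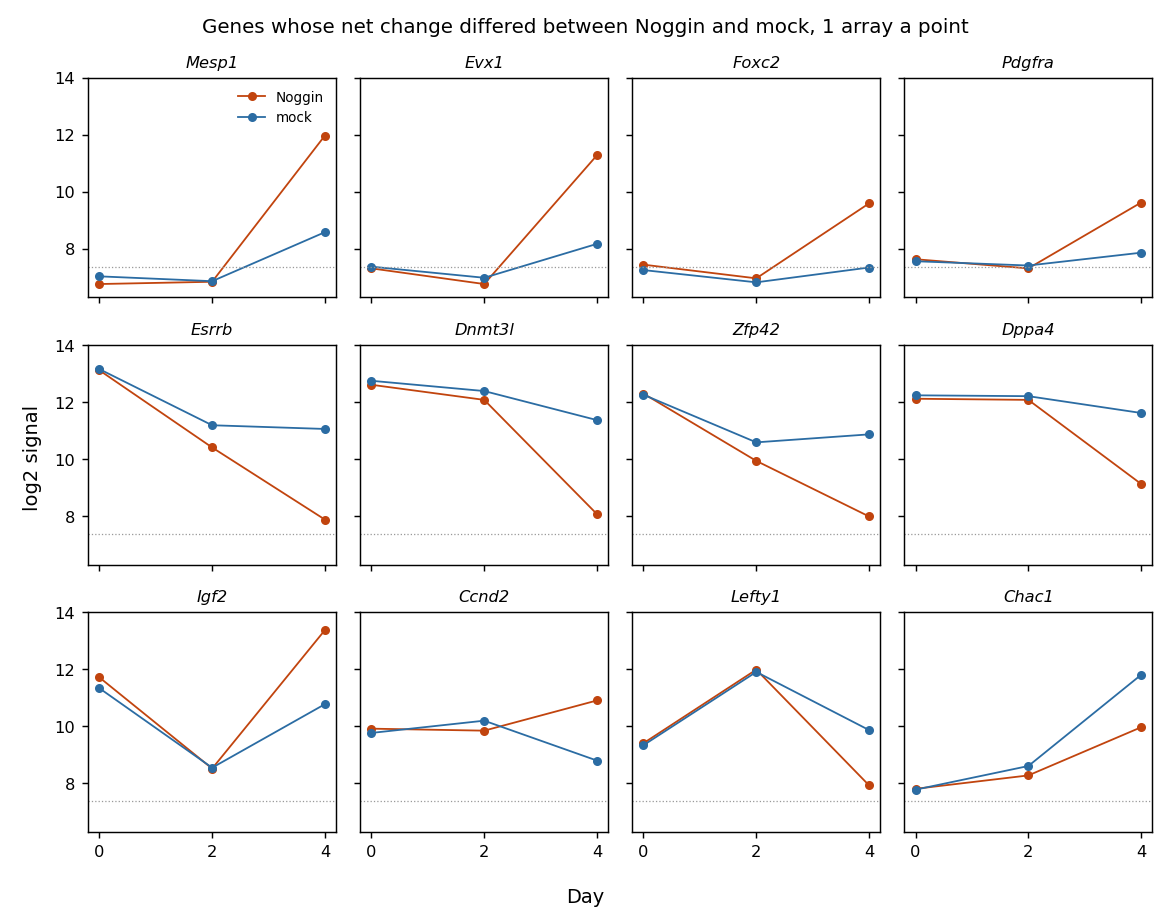
log2 signal on each of the 6 arrays against day for 12 genes, with 1 array a point, Noggin and mock as separate lines and the array median of 7.37 as a dotted line. The lines of each gene lie within 1 of each other at day 0 and part at day 4, for example 11.98 against 8.59 for Mesp1 and 7.88 against 11.06 for Esrrb.

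On the higher side, Mesp1 came first with a difference of 3.66, from net changes of 5.21 with Noggin and 1.55 with mock. Evx1 followed with 3.17, and Zfpm1, which encodes the GATA cofactor Fog1, with 2.33, from a level of 8.29 with Noggin and 8.41 with mock at day 0, and 10.97 and 8.76 at day 4. Vstm2b and Phlda2, an imprinted growth inhibitor of the placenta, differed by 2.26 and 2.26. Igf2, the imprinted fetal growth factor, stood at 11.72 with Noggin and 11.34 with mock at day 0, and 13.38 and 10.78 at day 4, so that of its 4 values the Noggin value at day 4 was the highest and the mock value at day 4 the lowest. Dll3 and Foxc2 differed by 2.09 and 2.06, and Stard8 by 2.04. Tbx3, which acts both in the naive state and in mesendoderm, differed by 2.08. Its signal went from 11.15 and 11.12 to 7.71 and 8.26 at day 2, and was 10.38 with Noggin but 8.27 with mock at day 4. Cholesterol synthesis genes leaned to the higher side with Noggin in 13 of 13 tested members, beside a median difference of 0 over all probes. Of these, 4 differed by 2-fold, Hmgcs1 by 1.30 among them, against 0.776% of all probes.

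On the lower side, Dnmt3l differed by -3.16, from net changes of -4.54 with Noggin and -1.38 with mock, and Esrrb by -3.14, from -5.24 with Noggin and -2.10 with mock. Zfp42 stood at 12.30 with Noggin and 12.26 with mock at day 0, and 7.99 and 10.87 at day 4, a difference of -2.92. Dppa4 stood at 12.12 with Noggin and 12.24 with mock at day 0, and 9.13 and 11.62 at day 4, and differed by -2.37. Ooep, Tfcp2l1, Klf2 and Gdf3 differed by -2.66, -2.40, -2.34 and -1.87. Nupr1, which encodes a stress-induced nuclear protein, stood at 10.22 with Noggin and 10.17 with mock at day 0, and 7.08 and 9.44 at day 4, after 7.48 and 7.42 at day 2, so the mock value came back to within 1 of its day 0 level and the Noggin value did not. The median difference over all probes was 0. Of 23 pluripotency genes 11 were lower with Noggin by 2-fold or more, against 0.845% of all probes, and 21 had a difference below 0. Klf4, Tcl1 and Trim28 of the same list differed by only -0.38, -0.28 and 0.04. At day 4 Tcl1 was below the array median, at 6.73 with Noggin and 6.97 with mock, and Klf4 stood at 7.71 and 8.03. Nearness to background can hide a difference for Tcl1 and Klf4. Stress genes of the amino acid list were lower with Noggin in 12 of 13, and 3 of them by 2-fold, against 0.845% of all probes. Of these 3, Chac1 was up in both treatments and differed by -1.87.

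**Figure D5:**
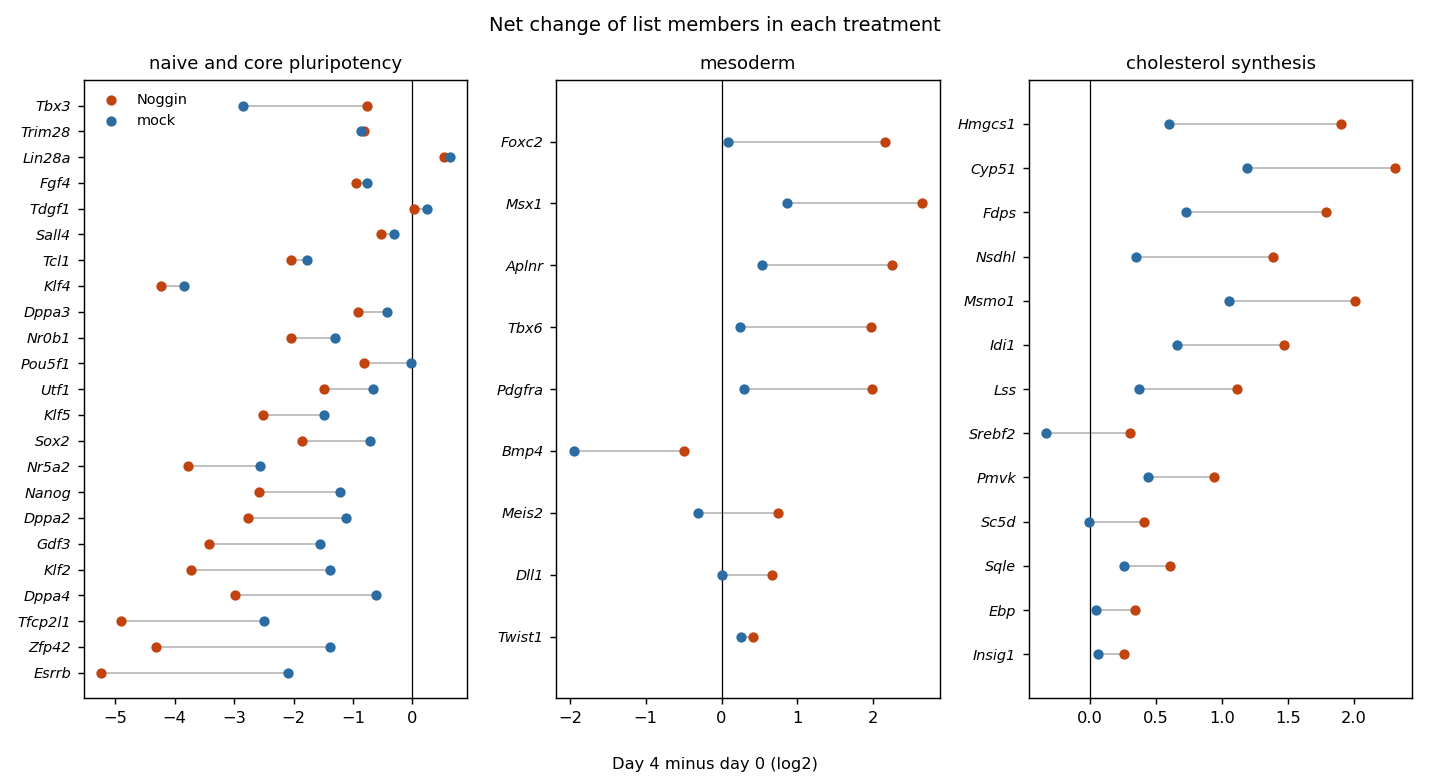
Day 4 minus day 0 change on the log2 scale of each tested member of 3 gene lists, with Noggin and mock as separate points joined by a line, ordered by the difference between them. Pluripotency genes lie further to the left with Noggin for 21 of 23 members, and mesoderm and cholesterol synthesis genes further to the right for 9 of 9 and 13 of 13. Over all tested probes the median difference was 0.

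The lists thus varied in how far the treatments parted. The lists of mesoderm, cardiac, BMP, Wnt, Notch, imprinted and cholesterol genes had median differences of 1.69, 0.77, 0.77, 0.52, 0.66, 0.85 and 0.74, beside 0 over all probes. Primitive streak and simple epithelial genes had 0.39 and 0.39, neuroectoderm genes 0.27, glycolysis genes 0.23 and endoderm genes 0.21. Epithelial-mesenchymal transition genes had 0.18 and blood and endothelial genes 0.17. With the filter at the 75th percentile the primitive streak value became -0.16 and the blood and endothelial value -0.15. The neuroectoderm value became -0.03 with no filter. Pluripotency genes had -0.82, amino acid stress genes -0.50 and Nodal pathway genes -0.49. Leukocyte genes, with 2 tested, had -1.12, and germ cell genes -0.27. Inflammatory genes had -0.23, and post-implantation epiblast and Polycomb genes -0.21 each. By contrast LIF pathway genes had -0.10, cell cycle genes -0.02, p53 targets -0.08, respiratory chain genes -0.03 and FGF genes -0.04. These medians describe 4 arrays, and the members that passed the filter are those high on at least 2 of them.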

How the data were processed

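Total RNA was labelled through biotin and streptavidin-Cy3 and hybridised to 6 bead arrays, per the labels' protocols. Each array's intensity values, 1 per probe, carry no normalisation between arrays, per the file headers and their ranges. The deposited log2 values equalled the quantile-normalised log2 intensities, without background subtraction, within 0.006. The software that made them is not given in the sources used here. GEO's platform annotation named 19420 probes with 1 gene symbol, 6 with several and 8069 with none, and 27491 probes were linked between the tables.

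limma 3.58.1 in R 4.3.3 fitted day and treatment on all 6 arrays, with 2 residual and 3.45 prior degrees of freedom, to the 14439 probes that exceeded their array's median on 2 or more of the 4 day 0 and day 4 arrays. Benjamini-Hochberg adjustment ran over these probes, and the code was tested on simulated data. The difference between the treatments' net changes has 1 array per treatment and day, so it was counted at 2-fold with no test.

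The members and the 34 gene lists were chosen with earlier results of these data known. Named are the 12 largest rises and falls called, the 10 largest differences on each side, the extremes of each list, given markers, and the 6 largest changes of opposite sign on each side; other list members named were chosen after their values were seen. Fibroblast, leukocyte and other lineage lists served as marker lists. A gene is represented by its brightest probe. The alternatives were normexp correction (offset 50), median scaling, no filter or the 75th percentile, 4 arrays only, no treatment term, and each array left out. Promoters came from RefSeq by symbol.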

Additional observations from a re-analysis of the deposited data

Results flagged for a closer look

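A net change of opposite sign, of at least 0.4 on the log2 scale in each treatment, set apart 12 genes. With 1 array per treatment and day the difference between the treatments was not tested.

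In 6 of them Noggin was the higher. Igf2 changed by 1.66 with Noggin and -0.56 with mock, a difference of 2.22. The difference was 2.04 for Stard8, from 1.27 and -0.77, and 1.96 for the cyclin gene Ccnd2, from 0.99 and -0.97. A dimmer tested probe of Ccnd2 was up in both treatments, by 2.18 with Noggin and 0.34 with mock, so its opposite signs rest on the brightest probe. The desaturase gene Scd2 differed by 1.35, from 0.83 and -0.52. Ccnd1 differed by 1.0, from 0.44 and -0.56, and Tenm4 by 0.85, from 0.45 and -0.4. Dimmer probes of Ccnd1 changed by 0.36 with Noggin and -0.28 with mock, by 0.33 and -0.51, and by 0.37 and 0.04.

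In the other 6 mock was the higher. The Nodal inhibitor gene Lefty1 changed by -1.48 with Noggin and 0.53 with mock, a difference of -2.01. Usp26 differed by -1.6, from -0.96 and 0.64, and Trim13 by -1.26, from -0.68 and 0.58. Hnrnpa3 differed by -1.25, from -0.66 and 0.59, the autophagy receptor gene Ncoa4 by -1.02, from -0.54 and 0.48, and the amino acid transporter gene Slc6a15 by -0.98, from -0.49 and 0.49.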

How the results depend on the processing

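The numbers of probes that rose and fell stayed within 1.5 times under normexp correction (2980 and 2930), median scaling (2971 and 2024), no filter (3117 and 3026) and no treatment term (3165 and 3147). The filter at the 75th percentile, which tests fewer probes, gave 1804 and 1895, and the 4 arrays alone 1283 and 1182. With each array left out in turn the counts ran from 0 to 3050 for rises and from 0 to 3144 for falls; they were 0 without either day 0 array and 2399 and 2221 without the Noggin day 4 array. Differences of net change higher and lower with Noggin numbered 161 and 210 under normexp, 84 and 177 under median scaling, 117 and 122 with no filter, and 61 and 119 at the 75th percentile. Under median scaling the median change of all probes was 0.067 with mock and -0.011 with Noggin. The treatment term pairs each day 4 array with its own day 0 array, and no paired analysis beyond it was possible because each treatment and day has 1 array.

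With the Noggin or the mock day 4 array left out, the mean changes of the genes with opposite signs in the treatments took the sign of the treatment that remained, whose lone day 4 array is assumed to vary like the other groups. Without the Noggin array and without the mock array in turn they were -0.66 and 1.76 for Igf2, -0.62 and 0.5 for Ccnd1, -1.1 and 1.12 for Ccnd2, 0.66 and -0.73 for Hnrnpa3, 0.53 and -1.48 for Lefty1, 0.46 and -0.52 for Ncoa4, and -0.5 and 0.81 for Scd2. In the same order they were 0.46 and -0.46 for Slc6a15, -0.88 and 1.38 for Stard8, -0.44 and 0.49 for Tenm4, 0.59 and -0.69 for Trim13, and 0.66 and -0.98 for Usp26. Of the 191 named genes in the fit, 54 lost their call with the 4 arrays alone and 7 under median scaling, and 148 lost it without either day 0 array. List medians changed sign 2 times with the 75th percentile filter, among them mesoderm (-1.22, the value of Bmp4 as the only member tested, against 1.11), and 2 times under median scaling; median differences changed sign 4, 3 and 2 times under the 75th percentile filter, median scaling and no filter, among them primitive streak (-0.16 against 0.39). Where no value above shows it, the cause was not tested. Probes near background limit the precision of low levels, and 1 array per treatment and day limits all differences between treatments.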

Other observations

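Some genes had little net change because they went out and came back. Of the 9375 tested probes with a net change under 0.5 on the log2 scale in both treatments, 11 were at least 2-fold higher and 26 at least 2-fold lower at day 2 than at day 0 in both treatments. These genes were chosen after their values were seen, and the day 2 difference has 1 array per treatment and was not tested. Vegfa, which encodes the main endothelial growth factor, had levels of 9.59 with Noggin and 9.46 with mock in stem cells, 7.59 and 7.82 on day 2, and 10.03 and 9.47 on day 4. The glucose transporter gene Slc2a3 stood at 13.68 and 13.72, then 11.78 and 12.07, then 13.70 and 13.40. Ndrg1, which like these 2 genes responds to low oxygen, stood at 8.73 and 8.60, then 7.40 and 7.55, then 8.72 and 8.94. The Notch effector gene Hes1 stood at 9.59 and 9.63, then 8.32 and 8.38, then 9.92 and 9.58. B2m, the light chain of MHC class I, stood at 10.72 and 10.41, then 9.13 and 9.06, then 10.92 and 10.71. Lgals1, which encodes galectin-1, stood at 11.08 and 10.89, then 9.39 and 9.52, then 11.29 and 11.30.

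The converse course was rarer. Cbr3, which encodes a carbonyl reductase, had levels of 8.14 with Noggin and 8.26 with mock in stem cells, 10.50 and 10.43 on day 2, and 7.94 and 8.57 on day 4. The interferon response factor gene Irf1 stood at 8.04 and 8.09, then 9.35 and 9.38, then 8.37 and 8.52. Ptch1, the Hedgehog receptor and a target of that pathway, stood at 8.39 and 8.34, then 9.50 and 9.63, then 8.44 and 8.30. At day 2 the Noggin and mock values of each of these 9 genes lay closer to each other than to the day 0 values. The genes were selected for a 2-fold shift in the same direction in both treatments. That choice favours such closeness, so nothing is drawn from it.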
